A study of Mus musculus with 26 samples.

Results

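The 12 h ultradian component of gene expression was examined in the choroid plexus (ChP) of 12 control (Ctrl) mice, which gave 12 of the 26 libraries of the series. The ChP libraries of all 12 Ctrl mice were used, and no library was chosen by its values. A cosine and a sine of 24 h and a cosine and a sine of 12 h were fitted together to each gene, and the 12 h pair was tested. Removing the 24 h curve in this way compares the mice killed at CT0/12, CT4/16 and CT8/20 of both cycles with one another, so each 12 h phase rests on 4 mice. The same fit in 12 mice with a lesion of the suprachiasmatic nucleus (SCNx) served for comparison.

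Both groups consisted of adult male C57Bl6J mice. Ctrl mice had sham surgery, and SCNx mice had an electrolytic lesion of the SCN, the master clock that conveys time to other tissues. After a light/dark cycle the animals stayed in constant darkness, and the ChP of a single mouse per group was taken at each of 12 times, 4 h apart, from CT0 to CT44, with CT counted in hours from the time when the lights would have come on. The ChP of the 4th ventricle was dissected whole, so fewer cells of a type and less RNA per cell cannot be told apart. The remaining 2 libraries came from FoxJ1-ERT2-Cre+/-; Bmal1fl/fl mice and were not used here. No time has a second mouse of the same cycle, and all errors below come from the scatter of the 12 mice of a group around the fitted curve with 7 residual degrees of freedom. With a sampling interval of 4 h, a 6 h rhythm gives the same values as a 12 h one, and the fit cannot tell these periods apart.

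The circadian clock is a feedback loop in which ARNTL (BMAL1) and CLOCK switch on Per, Cry, Nr1d1 and Nr1d2, whose proteins repress the loop in turn, and its output follows a 24 h curve in nearly every tissue. Rhythms with a period of about 12 h have been described for some mouse tissues, liver above all, and have been tied to the unfolded protein response (UPR) of the endoplasmic reticulum (ER) and its transcription factor XBP1. A 12 h term has a second source as well: any 24 h curve that is not a plain cosine, such as a narrow peak or a flat top, needs a 12 h term to be described. For this reason the shape of the fitted curve, with 1 or 2 maxima per 24 h, is given for the genes below.

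The promoter sequences of the genes on which the results turn are shown first. They are the 250 bases before a transcription start in RefSeq's annotation of GRCm38.p6, given 5′ to 3′ on the strand of the gene in lower case. Nr1d2 and Wnk4 are shown because they were the genes past the test for 12 h terms in Ctrl. Per1 is shown as the clock gene with the next smallest p after Nr1d2, at the first of 2 starts, and holds an E-box (CACGTG, in capitals), the element bound by ARNTL and CLOCK. Hspa5, Creld2, Hsp90b1 and Pdia6 belong to the ER folding genes and hold an ER stress response element (ERSE, CCAAT followed by 9 bases of any kind and CCACG, on either strand, in capitals), the element bound by ATF6 and XBP1 together with NF-Y. The regions are chr14:18239107-18239356 (minus strand) for Nr1d2, chr11:101260317-101260566 (plus) for Wnk4, chr11:69098699-69098948 (plus) for Per1, chr2:34771840-34772089 (plus) for Hspa5, chr15:88819396-88819645 (plus) for Creld2, chr10:86705445-86705694 (minus) for Hsp90b1 and chr12:17266339-17266588 (plus) for Pdia6.
Nr1d2: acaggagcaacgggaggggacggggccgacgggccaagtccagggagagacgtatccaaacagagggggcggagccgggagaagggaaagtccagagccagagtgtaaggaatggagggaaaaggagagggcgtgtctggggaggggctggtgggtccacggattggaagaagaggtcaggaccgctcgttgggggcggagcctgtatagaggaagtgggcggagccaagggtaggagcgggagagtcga
Wnk4: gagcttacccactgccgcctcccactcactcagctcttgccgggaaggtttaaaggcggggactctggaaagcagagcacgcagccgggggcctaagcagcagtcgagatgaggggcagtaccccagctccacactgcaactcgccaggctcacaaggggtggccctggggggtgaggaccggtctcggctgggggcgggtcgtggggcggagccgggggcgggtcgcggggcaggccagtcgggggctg
Per1: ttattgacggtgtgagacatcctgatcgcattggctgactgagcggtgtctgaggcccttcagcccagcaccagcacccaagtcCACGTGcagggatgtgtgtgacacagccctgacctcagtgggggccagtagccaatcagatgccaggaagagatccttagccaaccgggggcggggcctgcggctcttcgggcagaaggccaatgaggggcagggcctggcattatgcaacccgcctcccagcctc
Hspa5: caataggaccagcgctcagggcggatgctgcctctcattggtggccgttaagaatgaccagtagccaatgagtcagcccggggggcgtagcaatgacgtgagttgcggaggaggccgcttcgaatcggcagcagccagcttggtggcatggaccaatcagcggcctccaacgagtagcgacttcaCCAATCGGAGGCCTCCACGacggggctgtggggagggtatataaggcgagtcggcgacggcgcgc
Creld2: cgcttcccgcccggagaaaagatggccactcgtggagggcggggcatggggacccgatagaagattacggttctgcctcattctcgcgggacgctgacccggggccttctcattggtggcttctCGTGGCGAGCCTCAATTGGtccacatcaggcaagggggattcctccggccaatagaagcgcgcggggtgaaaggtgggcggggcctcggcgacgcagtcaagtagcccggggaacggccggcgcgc
Hsp90b1: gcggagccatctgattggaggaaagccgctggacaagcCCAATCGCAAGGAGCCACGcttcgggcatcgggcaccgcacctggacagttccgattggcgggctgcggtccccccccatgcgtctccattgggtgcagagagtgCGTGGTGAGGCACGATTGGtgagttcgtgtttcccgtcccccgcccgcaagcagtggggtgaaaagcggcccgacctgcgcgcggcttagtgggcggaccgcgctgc
Pdia6: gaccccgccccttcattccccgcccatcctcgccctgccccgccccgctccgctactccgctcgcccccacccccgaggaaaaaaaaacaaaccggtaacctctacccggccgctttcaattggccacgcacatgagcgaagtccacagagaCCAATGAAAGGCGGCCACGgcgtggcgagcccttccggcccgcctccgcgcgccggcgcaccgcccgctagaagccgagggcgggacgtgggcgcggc

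Motifs were searched in 300 bases, from 250 before to 50 after each start, and on both strands. In 32851 RefSeq promoters, the E-box occurred in 7.15%, the D-box TTATGTAA in 0.938%, the ERSE in 0.119% and the UPR element TGACGTGG in 0.676%. The printed 250 bases of Nr1d2 and Wnk4 held none of these 4 motifs. Hsp90b1 held the ERSE 2 times, once on each strand.

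The 24 libraries of Ctrl and SCNx held between 38751201 and 49527655 estimated counts, and 13697 genes had a mean of at least 1 CPM (counts scaled to a common library total) in both groups. The tissue carried its defining markers, with 10 epithelial markers (Ttr, Enpp2, Folr1 and others) summing to between 143000 and 166612 CPM in the Ctrl mice. The Ctrl libraries with the highest hepatocyte, neuronal and astrocyte sums all fall into the CT4/16 phase. Mural markers had their highest Ctrl sum in the CT28 mouse (386 CPM, median 202), also of that phase, and summed to 346 CPM in the CT8 mouse. Oligodendrocyte markers had their highest Ctrl sum in the CT4 mouse (169 CPM, median 88.7) and summed to 150 CPM in the CT44 mouse. The summed level of 20 hepatocyte markers was 4258 CPM in the CT16 mouse against a Ctrl median of 5.56 and was 64.03 CPM in the CT40 mouse, and the CT4 mouse had the highest sums of neuronal markers (502 CPM, median 152) and astrocyte markers (809 CPM, median 153). Among SCNx mice the hepatocyte sum reached 15324 CPM at CT0, and the neuronal and astrocyte sums reached 636 and 915 CPM at CT32. The blood sum was 6649 CPM in the SCNx CT44 mouse (median 540). Counts of most gene groups below are given with and without the CT4 and CT16 mice of Ctrl, while the CT40 mouse stayed in.

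The 12 h terms passed the test in 2 of 13697 genes of Ctrl, Nr1d2 and Wnk4 (0.0146% of genes tested, quasi-likelihood F test of edgeR, Benjamini-Hochberg adjusted p under 0.05). DESeq2's likelihood ratio test called 112 genes and limma 2. Next to Wnk4 came Samd4 with an adjusted p of 0.0745, and 16 genes had an adjusted p under 0.25. Without adjustment, 870 genes (6.35%) had a p under 0.05, where an even spread of p-values would give 685. In SCNx, 0 genes (0%) passed the same edgeR test, limma called 0 and DESeq2 called 1, and 470 genes (3.43%) had an unadjusted p under 0.05. The 24 h terms of the same Ctrl fit passed in 1786 genes, or 13%, and those of SCNx in 0 (0%), with 0.736 as the smallest adjusted p. Leaving out the Ctrl CT4 and CT16 mice together gave 4 genes for the 12 h terms, Nr1d2, Wnk4, Pde10a and Gm49909. The count was 19 without the CT40 mouse, and 12 of those genes were over 10 times their Ctrl median in the CT16 mouse alone. Fitting 1 model to the 24 libraries of both groups, which share 1 spread, gave 0 genes in Ctrl with 0.273 as the smallest adjusted p.

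**Figure D1:**
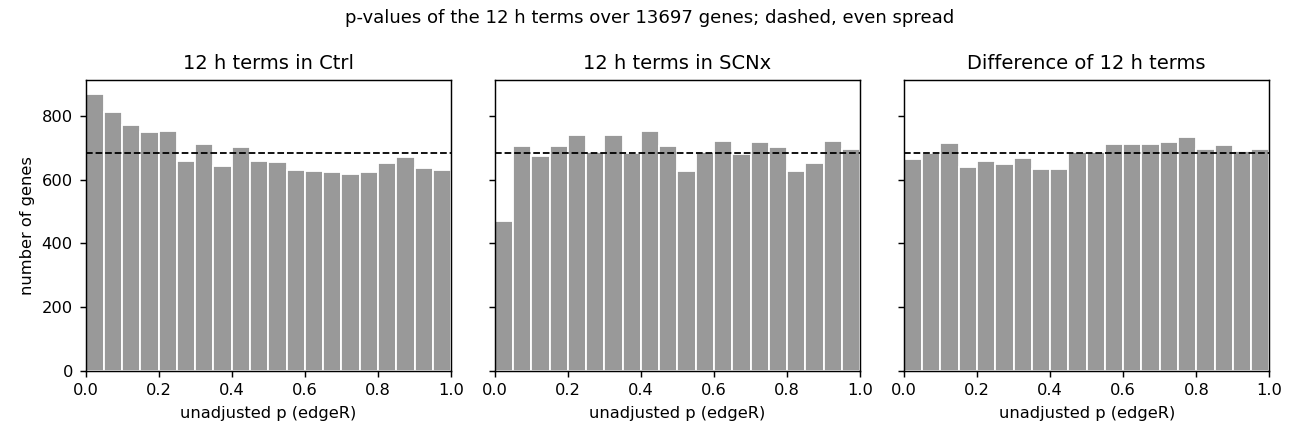
Number of genes by unadjusted p of the 12 h terms (edgeR) in bins of 0.05, for 13697 genes in Ctrl, in SCNx and for the difference between the groups. The dashed line marks the count per bin of an even spread, 685 genes; the first bin holds 870 genes in Ctrl, 470 in SCNx and 665 for the difference.

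Nr1d2 (ENSMUSG00000021775), which encodes the repressor REV-ERBβ, had the smallest p. From CT0 to CT20 its CPM in Ctrl was 41.6, 125, 191, 202, 134 and 39.6, and from CT24 to CT44 it was 37.4, 132, 188, 211, 138 and 38.3. Expression stayed near its top at CT8 and CT12 and at CT32 and CT36, and near its floor at CT0, CT20, CT24 and CT44, so the curve had a flat top and steep sides. The 12 h log2 amplitude, the distance from the middle of the cosine to its top, was 0.39 ± 0.022 (SE, n = 12) with a fitted peak at CT3.79 (adjusted p = 0.000696, edgeR). The 24 h log2 amplitude of the same fit was 1.35, and the sum of both terms had 1 maximum per 24 h, at CT12.5. In no 12 h window was the mouse nearest to the fitted 12 h peak the highest of its 3. SCNx mice had a lowest, median and highest CPM of 77.8, 111 and 192, with a 12 h amplitude of 0.14 ± 0.11 (SE, n = 12).

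Wnk4 (ENSMUSG00000035112) encodes a kinase that regulates sodium and chloride cotransporters. Its CPM in Ctrl was 23.9, 17.4, 23.1, 37.5, 24.7 and 22.1 from CT0 to CT20 and 22.8, 18.0, 24.3, 38.0, 24.3 and 20.9 from CT24 to CT44. The CT12 and CT36 mice stood above all others, and the CT4 and CT28 mice lay below all others. Outside CT12 and CT36 no mouse passed 24.7 CPM. The 12 h log2 amplitude was 0.31 ± 0.016 (SE, n = 12) with a peak at CT11.6 (adjusted p = 0.00279, edgeR), close to the 24 h amplitude of 0.35. The fitted curve had 2 maxima per 24 h, the higher at CT11.9, and the mean of the CT0 and CT24 mice, 23.3 CPM, lay between that of CT20 and CT44 (21.5 CPM) and that of CT8 and CT32 (23.7 CPM). SCNx mice ranged from 17.7 to 27.6 CPM, with a 12 h amplitude of 0.079. The call for Wnk4 was lost without the CT12 mouse (adjusted p = 0.0538) or without the CT36 mouse (0.0530), whereas Nr1d2 passed without each of the 12 mice in turn.

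**Figure D2:**
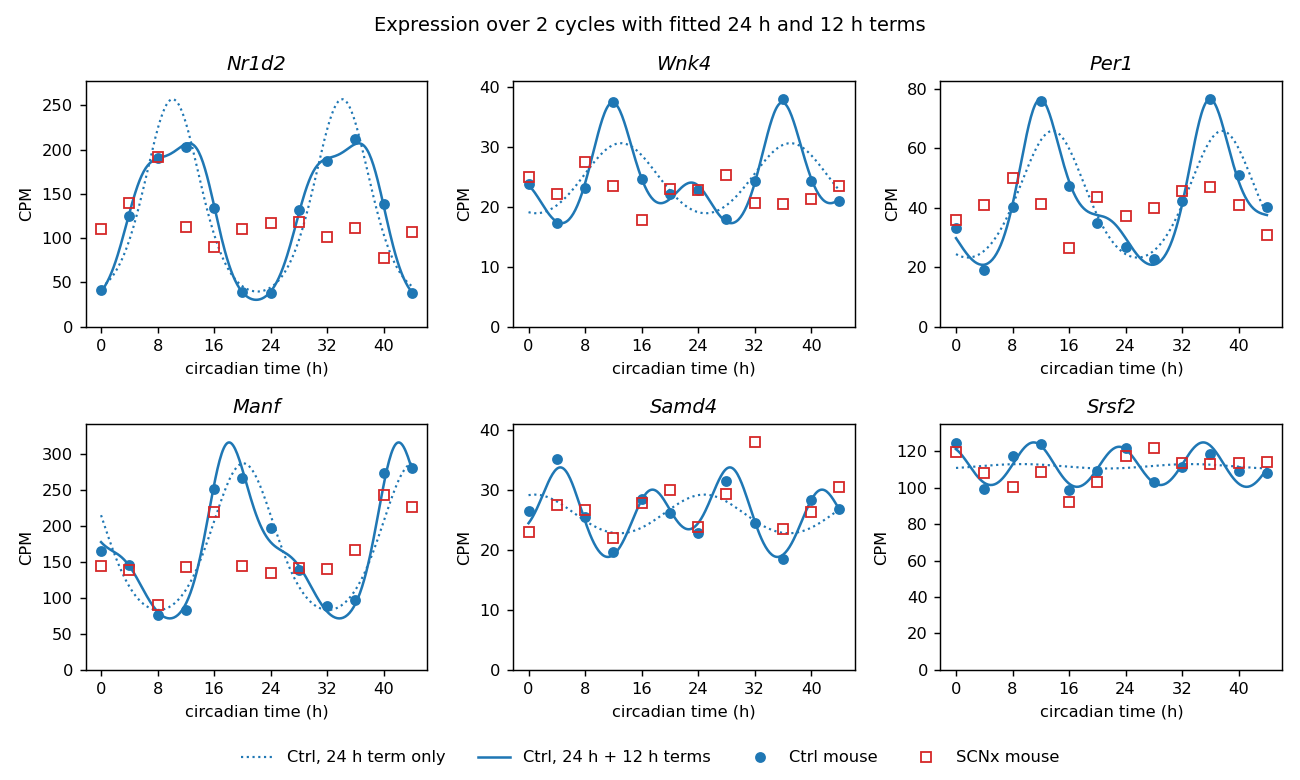
CPM (linear axis from 0) against circadian time in h for 6 genes, with filled circles for the 12 Ctrl mice and open squares for the 12 SCNx mice. Dotted lines are the fitted 24 h term alone and solid lines the 24 h and 12 h terms together for Ctrl; the solid line has 2 maxima per 24 h in Wnk4, Samd4 and Srsf2, of which that at CT12 and CT36 is the higher in Wnk4, and 1 in Nr1d2, Per1 and Manf.

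Core clock genes as a group had 12 of 19 members with an unadjusted p under 0.05 for the 12 h terms, or 63.2% against 6.35% of all genes tested, and 1 of them, Nr1d2, passed adjustment in the edgeR test. DESeq2 also called Per1, Per2 and Nr1d1. The 12 h log2 amplitudes of the 19 members lay between 0.026 for Dbp and 0.54 for Nr1d1, and their share of the 24 h amplitude of the same gene had a median of 18.0%. All 19 members passed for the 24 h terms of the edgeR test. Without the CT4 and CT16 mice, 12 of 19 again had a p under 0.05, Ciart in the place of Rora, against 5.93% of all genes. The fitted curve had 1 maximum per 24 h in 17 of the 19, against 4625 of all 13697 genes, and the exceptions were Clock and Bhlhe40.

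Among the repressors, Per1 (ENSMUSG00000020893) was at 76.0 CPM at CT12 and 76.5 at CT36, and no other Ctrl mouse passed 50.9. Its 12 h amplitude was 0.34 ± 0.050 (SE, n = 12) at CT11.0, with an adjusted p of 0.143 (edgeR). Per2 (ENSMUSG00000055866), which partners with the CRY proteins, also had its highest mice at CT12 (78.6 CPM) and CT36 (62.1) and its lowest at CT4 (8.99) and CT28 (11.6). The fitted 12 h peak of Per1 fell close to the maximum of its whole curve at CT11.9, which gives a peak narrower than a 24 h cosine. Nr1d1 (REV-ERBα) had the largest 12 h amplitude of the list, 0.54, beside a 24 h amplitude of 2.50, and its CPM ran from 2.52 at CT20 to 92.9 at CT8. Cry1 had 0.18 beside 1.01.

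The activators and output factors differed among themselves. Npas2, a partner of ARNTL related to CLOCK, had an unadjusted p of 0.00986 for its 12 h terms, and Clock had 0.0077. For Arntl itself, with a 24 h amplitude of 2.23 and CPM between 2.01 and 39.4, the 12 h amplitude was 0.12 ± 0.080 (SE, n = 12) with an unadjusted p of 0.275. Dbp, a PAR bZIP factor switched on through E-boxes, followed a plain cosine on the log2 scale: its 24 h amplitude was 2.04 and its 12 h amplitude 0.026. The D-box factor Tef had a 12 h amplitude of 0.16, and Hlf and Nfil3 had p-values of 0.775 and 0.304. In SCNx, 2 of the 19 members had a p under 0.05, or 10.5% against 3.43% of all genes, and 5 (26.3% against 7.97%) without the CT0 and CT32 mice, Nr1d2 among them. Of all 19 members, 10 had a larger 12 h amplitude in Ctrl than in SCNx, against 40.0% of all genes.

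**Figure D3:**
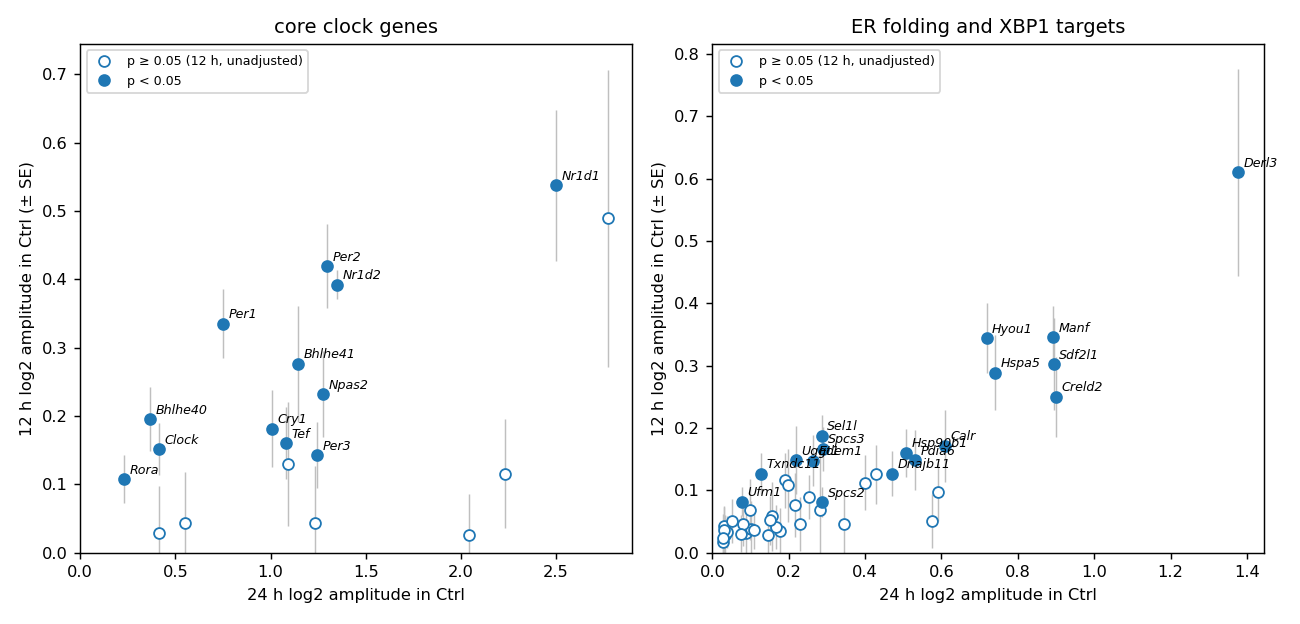
12 h against 24 h log2 amplitude in Ctrl for 19 core clock genes and 46 ER folding genes and XBP1 targets, both axes from 0. Bars are the SE of the 12 h amplitude over the fit to 12 mice, and filled, labelled points have an unadjusted p under 0.05 for the 12 h terms; all clock genes lie where the 24 h amplitude is larger.

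Genes of ER folding and XBP1 targets, which encode the chaperones, isomerases and degradation factors of the ER lumen, had 17 of 46 members with an unadjusted p under 0.05, or 37% against 6.35% of all genes. None passed adjustment in the edgeR test (smallest adjusted p = 0.143), while Manf, Hyou1 and Hspa5 were among the genes called by DESeq2. In SCNx the same count was 2 of 46, or 4.35% against 3.43% of all genes, and 7 of 46 (15.2% against 7.97%) without the CT0 and CT32 mice. Of the 17 members, 10 had a fitted 12 h peak nearest to CT4/16 and 7 nearest to CT8/20. Among all genes with such a p in Ctrl, the shares were 49.3% and 11.5%. The fitted curve had 1 maximum per 24 h in 11 of the 17 and in 28 of all 46, against 4625 of all 13697 genes. Without the CT4 and CT16 mice, 15 of 46 members had a p under 0.05 (32.6%, against 5.93%), Manf, Hyou1 and Hspa5 among them.

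Manf (ENSMUSG00000032575), a secreted factor induced by ER stress, shows the shape. In Ctrl its CPM was 166, 145, 76.0, 83.6, 251 and 267 from CT0 to CT20 and 198, 138, 89.3, 97.1, 274 and 280.5 from CT24 to CT44. Both cycles held a steep step between CT12 and CT16 and a slow decline from CT20 to CT8. The 12 h amplitude was 0.35 ± 0.050 (SE, n = 12) at CT4.76, beside 0.89 for the 24 h term (adjusted p = 0.143, edgeR). Hspa5 (BiP, ENSMUSG00000026864), the main Hsp70 chaperone of the ER, ran from 740 and 830 CPM at CT12 and CT36 to 2104 and 1989 CPM at CT16 and CT40, with a 12 h amplitude of 0.29 and an adjusted p of 0.454 (edgeR). Hyou1, a nucleotide exchange factor for BiP, ran from 118 and 130 CPM to 332 and 350 CPM between the same times.

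The step between CT12 and CT16 was counted over the list, a choice made after the values were seen. In 38 of 46 members both mice of CT16 and CT40 lay above both mice of CT12 and CT36, which was the case in 19.2% of all genes. The ratio between the means of the 2 times had a median of 1.32 over the 46 members in Ctrl, with 6.38 for Derl3 as the highest. In SCNx the step held in 29 of 46 members against 17.3% of all genes, and the median ratio of the 46 was 1.12, with 1.54 as the highest. The step was noticed in Ctrl, so the difference between these medians is a description. The CT16 and CT40 mice had the highest hepatocyte sums of Ctrl, 4258 and 64.03 CPM, and their part in the step was not tested. Xbp1 itself had a 12 h amplitude of 0.10 ± 0.046 (SE, n = 12) beside a 24 h amplitude of 0.59, and an unadjusted p of 0.122.

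Promoters in RefSeq were found for 39 of the 46 members, and 10 of these held an ERSE, against 37 of 27025 genes with a promoter (0.137%). Of the 17 members with a p under 0.05, 14 had a promoter and 6 of these held the ERSE: Calr, Creld2, Derl3, Hsp90b1, Hspa5 and Pdia6. Of the other members, 25 had a promoter and 4 held it: Canx, Dnajc3, Ero1b and Syvn1. Several of these genes are textbook targets of the UPR, and the list was made of such genes, so the share is a description of the list. In the 12 clock genes with a p under 0.05, 10 had a promoter, of which Bhlhe41, Cry1, Per1 and Tef held an E-box and Per3 a D-box. Of the other clock genes, 6 had a promoter and Ciart held an E-box. Among the 27025 genes, 8.09% held an E-box and 1.11% a D-box, and 7 of the 39 ER folding members held an E-box.

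**Figure D4:**
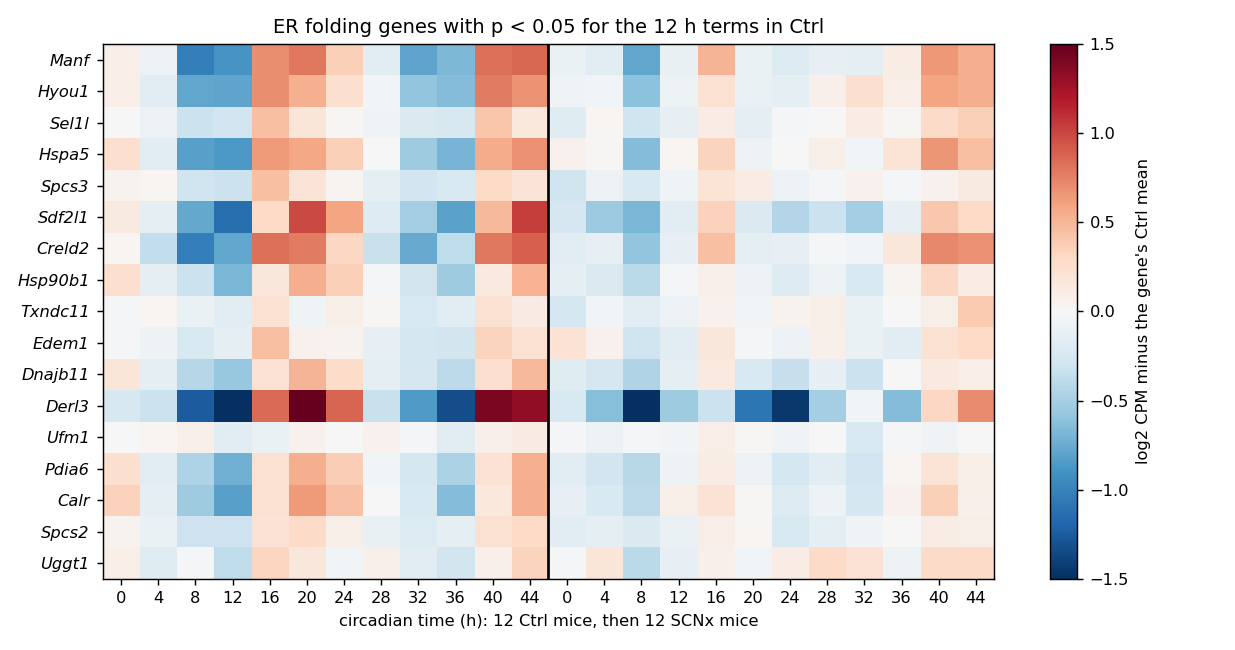
log2 CPM minus the gene's Ctrl mean (color) for the 17 ER folding genes with an unadjusted p under 0.05, by circadian time in h, with 12 Ctrl mice on the left of the line and 12 SCNx mice on the right. In Ctrl the lowest values sit at CT8, CT12, CT32 and CT36 and the highest at CT16, CT20, CT40 and CT44.

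Genes with 2 rises per 24 h were looked for in a way that uses no model, a count chosen after the values were seen. In 62 genes of Ctrl (0.453%) all 4 mice of a 12 h phase had a higher CPM than the other 8, and in SCNx this was so in 38 genes (0.277%). The number that a random order of the mice would give was not computed, so these counts are a description. In Ctrl 38 of these genes were highest at CT4/16, 22 at CT0/12 and 2 at CT8/20. In SCNx the numbers were 9, 11 and 18. A single gene was on both lists, with different phases. The CT4 and CT16 mice with the high marker sums of other cell types belong to the most frequent phase in Ctrl, and these counts were made with them; their part was not tested.

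Samd4 (ENSMUSG00000021838), an RNA-binding protein with a SAM domain that represses translation, was at 35.1, 28.5, 31.5 and 28.3 CPM in the CT4, CT16, CT28 and CT40 mice, and the other 8 mice lay between 18.5 and 26.8 CPM. Its 12 h amplitude of 0.29 ± 0.031 (SE, n = 12) exceeded its 24 h amplitude of 0.18 (adjusted p = 0.0745, edgeR). In SCNx its CPM reached 37.9, with a 12 h amplitude of 0.25 and the highest mouse at CT32. Samd12 had a similar phase, with 18.5, 17.3, 17.8 and 17.9 CPM at CT4, CT16, CT28 and CT40, but the CT20 mouse reached 18.9 CPM. The adjusted p of Samd4 and Samd12 was 0.268 (edgeR) without the CT4 and CT16 mice.

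Srsf2 (ENSMUSG00000034120), an SR protein of the spliceosome, had the opposite phase. It was at 124, 124, 122 and 119 CPM in the CT0, CT12, CT24 and CT36 mice and at most at 117 CPM in the other 8, with a 12 h amplitude of 0.15 ± 0.024 (SE, n = 12) and a 24 h amplitude of 0.016 (adjusted p = 0.373, edgeR). Hdgfl2, a chromatin reader, was at 73.7, 83.0, 73.8 and 85.9 CPM at these times and between 61.7 and 72.8 CPM at the others. For Hdgfl2 the 12 h amplitude was 0.16 and the 24 h amplitude 0.10. Micall1, an endosomal recycling protein, had its 2 highest mice at CT12 (82.2 CPM) and CT36 (83.2 CPM) and its lowest at CT4 and CT28, with a 12 h amplitude of 0.14. In Zfp367, a zinc finger gene, the same phase was the low one: the CT0, CT12, CT24 and CT36 mice were at 17.7, 17.2, 19.3 and 17.8 CPM and the other 8 between 20.2 and 21.7 CPM.

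Genes with a fitted 12 h peak nearest to CT8/20 were the fewest. Coq10b, a mitochondrial coenzyme Q-binding protein, was at 39.5, 46.2, 40.8 and 49.7 CPM at CT8, CT12, CT32 and CT36 and between 21.0 and 35.1 CPM in the other mice, with a 12 h amplitude of 0.22 beside 0.50 for 24 h (adjusted p = 0.143, edgeR). Its curve had 1 maximum. Sgpp2, a sphingosine-1-phosphate phosphatase, had its highest mice at CT20 (48.5 CPM) and CT44 (49.2 CPM) and its lowest at CT4 and CT28, and its curve had 2 maxima.

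Ifit2, an interferon-induced gene, was at 6.17, 4.98, 5.59 and 6.63 CPM in the CT4/16 phase and between 2.77 and 4.91 CPM in the other mice, with an adjusted p of 0.168 (edgeR). Its adjusted p was 0.293 without the CT4 and CT16 mice. The related Ifit1 had a 12 h amplitude of 0.76 ± 0.12 (SE, n = 12), with 6.48 CPM at CT16, 5.12 at CT40 and between 1.28 and 3.91 CPM at the other times. Car3, a carbonic anhydrase of muscle and fat, also stood in the CT4/16 phase, with 4.25 CPM in the CT16 mouse, and reached 223 CPM in the SCNx CT0 mouse, the one with the high hepatocyte sum. Its adjusted p without the CT4 and CT16 mice was 0.875 (edgeR).

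Sterol and fatty acid synthesis genes had 7 of 33 members with an unadjusted p under 0.05 (21.2%, against 6.35% of all genes), and all 7 peaked nearest to CT4/16: Idi1, Stard4, Cyp51, Fasn, Msmo1, Insig1 and Acaca. Idi1, the isomerase of the mevalonate pathway, was at 54.6 CPM at CT16 and 56.3 at CT40, while all other Ctrl mice lay between 32.8 and 46.8 CPM. In 26 of the 33 members both mice of CT16 and CT40 lay above both of CT12 and CT36, against 19.2% of all genes. This was so in 2 members in SCNx, against 17.3%, and the count was chosen after the values were seen. The CT16 and CT40 mice had the highest hepatocyte sums of Ctrl, 4258 and 64.03 CPM, and their part in the step from CT12 was not tested. Without the CT16 mouse alone, 7 of 33 members had a p under 0.05 (21.2%, against 6.1% of all genes). The CT40 mouse was not left out for this list. Of all 33 members, 24 had their fitted 12 h peak nearest to CT4/16, a phase that 37.2% of all genes shared. With all mice the 12 h amplitude was larger in Ctrl than in SCNx in 4 of the 33, against 40.0% of all genes. Its median over the members was 0.076 in Ctrl and 0.18 in SCNx.

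The counts of this group changed with the mice that had high marker sums. Without the CT4 and CT16 mice of Ctrl, 12 of 33 sterol genes had a p under 0.05 (36.4%, against 5.93% of all genes), and all 12 peaked nearest to CT4/16. In SCNx 5 of 33 (15.2%, against 3.43%) had a p under 0.05 with all mice, and 21 of 33 (63.6%) without the CT0 and CT32 mice, against 7.97% of all genes. Of these 21, 14 peaked nearest to CT0/12 and 7 nearest to CT4/16. Hmgcs1, the cytosolic HMG-CoA synthase, then had a 12 h amplitude of 0.22 ± 0.048 (SE, n = 10) in SCNx with a peak at CT1.93, and Idi1 had 0.36 ± 0.11 (SE, n = 10) with a peak at CT2.05. None of them passed adjustment there (edgeR), and Hmgcs1 had an adjusted p of 0.453.

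SR and hnRNP splicing factors had 8 of 45 members with a p under 0.05 (17.8%, against 6.35% of all genes here and for the next groups), Srsf2 and Hnrnpl among them. Glucocorticoid target genes had 5 of 20 (25.0%), Per1, Plin4, Ddit4, Sult1a1 and Nr3c1. Of these 5, 4 peaked nearest to CT0/12, against 39.2% of all genes with such a p. UPR sensors and ATF4 targets had 5 of 32 (15.6%), with Slc7a11, the cystine transporter, at 66.0 CPM in the CT4 mouse and 12.4 in the CT0 mouse, the former being the one with the high neuronal and astrocyte sums (adjusted p of Slc7a11 0.454 with all mice and 0.790 without the CT4 and CT16 mice, edgeR). Cytosolic heat shock genes had 4 of 32 (12.5%), immediate early genes 3 of 27 (11.1%) and N-glycosylation genes 3 of 42 (7.14%, close to the share of all genes). None of these members passed adjustment in the edgeR test. The heat shock genes had 9 of 32 (28.1%) without the CT4 and CT16 mice, with Hspa4l, Hspb1, Hsph1 and Bag3 on both counts, and the glucocorticoid targets had 8 of 20 (40.0%), against 5.93% of all genes. The UPR and splicing groups then had 5 of 32 and 7 of 45.

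Genes of the secretory coats, the proteasome and the respiratory chain had few members or none with a p under 0.05. COPII and COPI coat genes had 0 of 35, proteasome subunits 1 of 39 and nuclear genes of the respiratory chain 0 of 54. The fitted 12 h peak of 45 of the 54 respiratory chain genes was nonetheless nearest to CT8/20, against 28.1% of all genes. The median 12 h amplitude of the 54 was 0.040, against 0.063 over all genes in Ctrl. These genes share libraries, so they are not independent. The 2 cold-inducible genes, Cirbp and Rbm3, had unadjusted p-values of 0.181 and 0.0706, and both had a p under 0.05 without the CT4 and CT16 mice.

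Genes for the secretion of cerebrospinal fluid (CSF) and for transport across the epithelium had 5 of 43 members with a p under 0.05 (11.6%, against 6.35% of all genes), and 3 of 42 (7.14%, against 5.93%) without the CT4 and CT16 mice, when Car3, Slc19a1 and Tjp1 were lost. Car14, a membrane-bound carbonic anhydrase, was at 276 CPM at CT12 and 307 at CT36 and between 183 and 243 CPM in the other Ctrl mice, with a 12 h amplitude of 0.15 ± 0.034 (SE, n = 12) beside 0.25 for 24 h. Slc19a1, a folate carrier, had its highest mice at the same times, with 97.4 and 99.3 CPM. Lrrc8a and Tjp1 were the remaining members beside Car3. Ttr, the carrier of thyroxine and the most abundant product of the epithelium, had a 12 h amplitude of 0.051 and an unadjusted p of 0.442, and 0 of 10 epithelial markers had a p under 0.05.

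Markers of most other cell types leaned to the CT4/16 phase, and blood markers to CT8/20 (5 of 5, against 28.1% of all genes). The fitted 12 h peak was nearest to CT4/16 in 18 of 18 hepatocyte markers tested, 9 of 10 neuronal, 6 of 6 astrocyte, 6 of 6 fibroblast and 6 of 6 macrophage markers, beside 37.2% of all genes. Hepatocyte markers had 5 of 18 members with a p under 0.05 in Ctrl (27.8%, against 6.35% of all genes). In SCNx they had 15 of 18 (83.3%, against 3.43%). C3 among them was at 463 CPM in the Ctrl CT16 mouse and at most at 5.64 CPM in the others. When the CT4 and CT16 mice were left out, 4 hepatocyte markers were left above the filter and 0 of them had a p under 0.05. In SCNx without the CT0 and CT32 mice, 4 were left too and 0 had a p under 0.05.

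**Figure D5:**
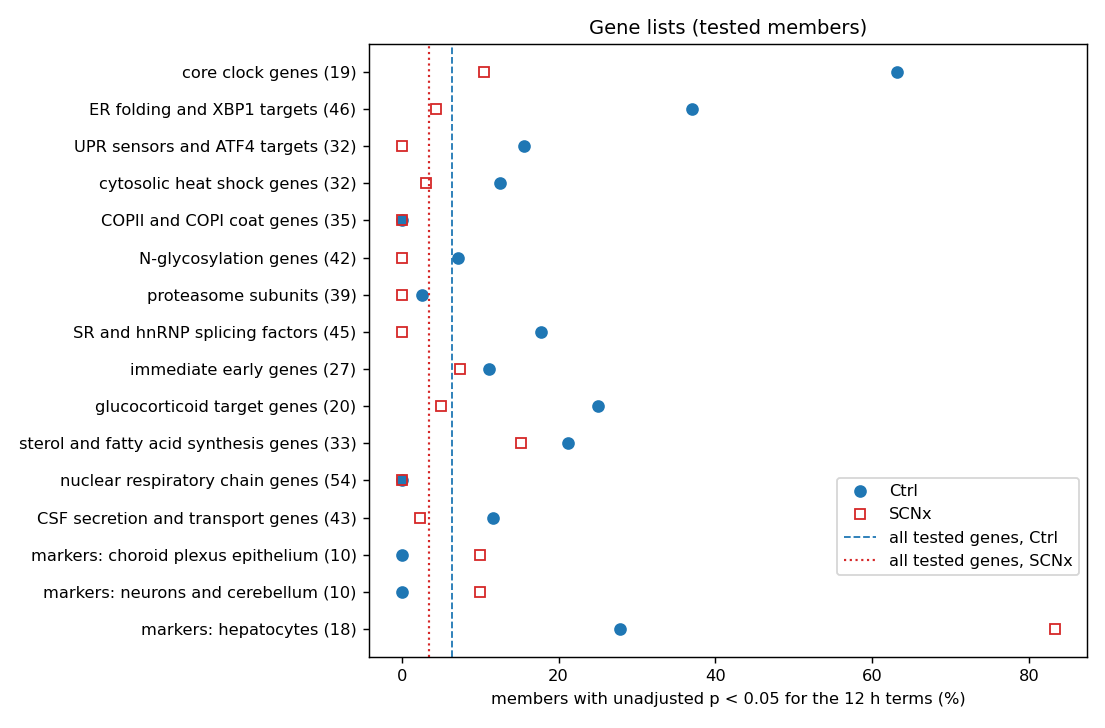
Percent of the tested members of each gene list (number in brackets) with an unadjusted p under 0.05 for the 12 h terms, with filled circles for Ctrl and open squares for SCNx; lists with at least 10 members are drawn. Vertical lines mark all genes tested, 6.35% in Ctrl and 3.43% in SCNx; core clock genes stand at 63.2% and ER folding genes at 37.0% in Ctrl.

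The 12 h amplitudes over all genes were no larger in Ctrl than in SCNx. The log2 amplitude at 12 h had a median over genes of 0.063 for Ctrl and 0.078 for SCNx, and it was larger in Ctrl for 5477 genes, or 40.0%. The median 24 h amplitude had the reverse order, with 0.11 in Ctrl and 0.091 in SCNx. Leaving out the 4 mice with high marker sums kept both orders, with 0.064 in Ctrl and 0.076 in SCNx at 12 h, and the amplitude was then larger in Ctrl for 42.5% of genes. The scatter of the mice around the fitted curves also differed, with a median residual SD of 0.117 in Ctrl and 0.161 in SCNx on the log2 scale, and it was 0.10 and 0.11 without those 4 mice. The 12 h pair accounted for 10.9% of the variance of the median gene over the 12 mice of Ctrl, and for 13.1% over those of SCNx, where an even split over the terms would give 18.2%. The 24 h pair took 31.0% and 18.1%.

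A direct test that the 12 h terms of SCNx equal those of Ctrl passed in 0 genes (0%, edgeR, smallest adjusted p = 0.603), while limma called 0 and DESeq2 called 8, and 665 genes (4.86%) had an unadjusted p under 0.05. For Nr1d2 the unadjusted p was 0.000313 and the adjusted p 0.846 (edgeR). Without the SCNx CT32 mouse, the one with the high neuronal and astrocyte sums, the adjusted p of Nr1d2 was 5.61e-05, and it was then the only gene called. For Wnk4 the unadjusted p was 0.00197 and the adjusted p 0.993 (edgeR). Over all libraries, DESeq2's likelihood ratio test gave Nr1d2 an adjusted p of 0.00819 and limma gave 0.911, so whether its 12 h term differed between the groups depended on the tool.

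Of the genes with the smallest p for the difference, Vim, Ifit2, Nr1d2, Gm49749 and Ifit1 had the larger amplitude in Ctrl. Vim, an intermediate filament gene, had a similar amplitude in both groups, 0.18 ± 0.039 in Ctrl and 0.16 ± 0.037 in SCNx (SE, n = 12), with a difference in phase. The mean of the mice 24 h apart was highest at CT4 and CT28 in Ctrl (64.3 CPM) and at CT8 and CT32 in SCNx (70.5 CPM), where the CT32 mouse alone was at 75.4 CPM. Gfpt2, Gm28052, Pck1, Ifit3b and Mtmr4 had the larger amplitude in SCNx. Pck1, a liver enzyme of gluconeogenesis, owed its values to single mice, with 54.0 CPM in the Ctrl CT16 mouse and at most 0.852 in the other Ctrl mice. The number of genes with an unadjusted p under 0.05 in SCNx depended on the same mice, since it was 470 with all 12 mice and 1070 (7.97%) without the CT0 and CT32 mice, where Ctrl without its CT4 and CT16 mice had 795 (5.93%). The edgeR test then called 2 genes in SCNx, Rpl35a-ps3 and Rpl35a-ps4, pseudogenes that can share reads with their parent gene. In SCNx with all mice the genes with the smallest p were Peli2, ENSMUSG00000095041, Loxl2, Zfp786 and Klf11, and each had an adjusted p of 0.994 (edgeR).

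The 870 genes with an unadjusted p under 0.05 in Ctrl peaked nearest to CT4/16 in 429 cases, CT0/12 in 341 and CT8/20 in 100, with the CT4 and CT16 mice included. In 503 of them the 12 h amplitude exceeded the 24 h amplitude, and 287 also passed for the 24 h terms. The fitted curve had 2 maxima per 24 h in 799 of the 870 (91.8%), a count that the choice by the 12 h terms favours. Over all genes tested the share was 66.2% in Ctrl and 82.2% in SCNx. Of the 870, 82 had a p under 0.05 in SCNx too, or 9.43% of the Ctrl list, against 3.43% of all genes in SCNx, and 17.4% of the 470 SCNx genes, against 6.35% of all genes in Ctrl. The time nearest to the fitted peak was the highest of its 3 mice in all 4 windows of 12 h in 331 of all genes tested in Ctrl (2.42%) and in 382 in SCNx (2.79%). The share that a random order of the mice would give was not computed.

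Repetition from cycle to cycle was measured by choosing genes on 1 day and reading them on the other. The 100 genes with the largest share of variance at 12 h from CT0 to CT20 had a mean 12 h amplitude of 0.41 there, and along the same phase their mean from CT24 to CT44 was 0.030 with an SD over genes of 0.22. The direction was the same in 65 of the 100, and the median was 0.020. Chosen from CT24 to CT44 instead, the genes had a mean of -0.060 from CT0 to CT20, with the same direction in 60. Their median was 0.014, with an SD over genes of 0.47. The CT4 and CT16 mice of Ctrl with the high marker sums fall into CT0 to CT20 and stayed in, and their part was not tested. Genes chosen and read within SCNx had means of 0.0026 and 0.045 on the other day, with the same direction in 53 and 48. The genes chosen from CT0 to CT20 of Ctrl had the same direction in 65 of 100 from CT0 to CT20 of SCNx, with a mean of 0.029, and in 32 from CT24 to CT44 of SCNx. For the genes chosen from CT24 to CT44 of Ctrl, these numbers were 53 from CT0 to CT20 of SCNx and 62 from CT24 to CT44.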

How the data were processed

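Total RNA of the ChP was made into libraries with the KAPA mRNA HyperPrep kit and sequenced by the authors. According to the study's methods, reads went through nf-core/rnaseq with Salmon 1.9.0 against GRCm39 and Ensembl 104. The deposited values are estimated counts per gene, not whole numbers, of 55416 genes, and they were rounded here. Only the 24 Ctrl and SCNx columns were used.

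The filter kept 13697 genes, those whose CPM averaged 1 or more in Ctrl and also in SCNx. Counts were scaled by TMM and tested in edgeR 4.0.16 (R 4.3.3) with the quasi-likelihood F test and Benjamini-Hochberg adjustment over all tested genes, threshold 0.05. The model per group had 5 terms, and the difference was tested in 1 model of all 24 libraries. Amplitudes, their SE and peak times came from least squares on log2 CPM with a prior count of 1. Limma 3.58.1 and DESeq2 1.42.0 were alternatives. The scripts were tested on simulated data. Each time of a cycle has 1 mouse, so p-values measure scatter around the curve. The depth was similar in all libraries, and its counting error is smallest for abundant genes.

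The genes named were those with the smallest p per 12 h phase, for the difference and in SCNx, the leading members of each list, and 10 fixed genes. Genes outside this rule, among them Tef, Npas2, Clock, Per3, Nfil3, Hlf, Derl3, Hmgcs1 and the ER and clock genes named for a motif, were chosen after their values were seen. The members and lists were chosen with earlier results of these data known. Alternatives without the mice with high marker sums were in part added after the data were seen. Promoters came from RefSeq tables of GRCm38.p6, a build other than that of the counts, and were matched by symbol.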

Additional observations from a re-analysis of the deposited data

How the results depend on the processing

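Across the named genes and all alternatives, 2272 values kept their side of the threshold, 101 passed only under an alternative and 6 failed only under one. A change of direction was looked for only in the results past the threshold, Nr1d2 and Wnk4 in Ctrl, and occurred in 0 alternatives. For the 12 h terms in Ctrl (2 genes), the number of genes called was 112 with DESeq2's likelihood ratio test, 1620 with no filter on low counts, 0 without the 24 h terms, 0 with 1 fit over both groups and 4 without the CT4 and CT16 mice. Of the 1620, 993 were among the genes that passed the main filter, and 761 were over 10 times their median in a single library. Leaving out 1 library gave 1 to 19 genes, with 1 without CT12 or CT36 and 19 without CT40. Adding the cycle as a term gave 3 genes, Samd4 being the third. In SCNx (0 genes), DESeq2 gave 1, no filter 4 and leaving out CT0 and CT32 gave 2, and leaving out 1 library gave 0 to 33, with 33 without CT24. For the difference (0 genes), DESeq2 gave 8, no filter 1936 and leaving out the 4 mice gave 1, and leaving out 1 library gave 0 to 1. With circadian time as a block, which pairs each SCNx mouse with the Ctrl mouse of the same time, 0 genes were called for the difference. The cause of these shifts was not tested. Each phase rests on 4 mice, and genes near the filter of 1 CPM have the largest counting error.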
